A study of Mus musculus with 6 samples.

Results

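The anaphase-promoting complex (APC/C) is the ubiquitin ligase that marks mitotic proteins for destruction, and 10 genes of its activators, regulators and core were followed by gene symbol among the 55487 rows of the expression table. All 10 were among the 18227 genes with a mean of at least 10 normalized reads, the minimum for testing. By role they were Cdc20, Ube2c, Ube2s, Fbxo5, Pttg1 and Espl1, grouped here as 6 cell-cycle-regulated genes, Fzr1 on its own, and 3 core subunits, Cdc27, Anapc1 and Anapc2. RNA was sequenced from YFP-positive cells sorted out of the subventricular zone (SVZ) of adult mice, a germinal layer beside the lateral ventricles, with 3 libraries per genotype. Knockout libraries were labelled E2F1(-/-);E2F3(F/F), and heterozygous libraries E2F1(+/-);E2F3(F/+). Both groups carried the NestinCreERT2 driver and the R26;EYFP reporter, and their strain background was given as C57BL/6;Sv/129;FVB/N. Both were gavaged with tamoxifen, starting when aged 6 to 10 weeks, at 200 mg/kg per day for 5 days, and tissue was collected 10 days after the last dose. Nestin marks neural stem cells, and the reporter also persists in their descendants. Each library pooled cells of several mice, so errors given here are between pools. The heterozygous cells lacked 1 E2f1 allele and carried 1 floxed E2f3 allele, so no library was wild type. The question named by the series title is how activator E2F factors act on quiescent and activated neural stem cell signatures.

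The APC/C needs a co-activator to recognise its substrates. Cdc20 serves in mitosis, and Cdh1, the product of Fzr1, serves from mitotic exit through G1. Ube2c starts ubiquitin chains on substrates and Ube2s lengthens them, while Fbxo5 (Emi1) blocks the complex in S and G2 phase. Its best-known mitotic substrate is securin, the product of Pttg1, which holds the protease separase, the product of Espl1, inactive until sister chromatids are to be parted. In dividing progenitors of the subventricular zone this machinery ends each mitosis, and in postmitotic neurons Cdh1 remains as an APC/C partner.

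The promoters of the genes were read first, since 4 of the members share a short run of letters there. The letters TTTGAA are those of the cell-cycle genes homology region (CHR), a promoter element of mitotic genes bound by MuvB-containing complexes, and CCAAT is the box bound by NF-Y. Both were searched on both strands of the RefSeq promoter windows of GRCm38.p6, which run from 250 bases before each start to 50 bases after it; no CHR overlapped a CCAAT in the members, while the CCAATs of Ube2c at 186 and 183 bases before its start overlapped each other. All 10 members had 1 window. The 4 stretches with a CHR are shown with Cdc27, which has CCAAT boxes and no CHR, from 100 bases before to 20 bases after the start, with CHR and CCAAT letters of either strand in capitals. Their positions are chr4:118437324-118437443 (minus strand) for Cdc20, chr2:164769829-164769948 (plus) for Ube2c, chr10:5805446-5805565 (minus) for Fbxo5, chr15:102296193-102296312 (plus) for Espl1 and chr11:104550601-104550720 (minus) for Cdc27.
Cdc20: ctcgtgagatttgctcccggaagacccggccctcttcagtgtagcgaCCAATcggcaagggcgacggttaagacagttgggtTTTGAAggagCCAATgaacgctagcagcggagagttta
Ube2c: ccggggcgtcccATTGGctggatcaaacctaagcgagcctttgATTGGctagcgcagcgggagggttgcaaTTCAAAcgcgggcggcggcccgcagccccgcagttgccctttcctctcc
Fbxo5: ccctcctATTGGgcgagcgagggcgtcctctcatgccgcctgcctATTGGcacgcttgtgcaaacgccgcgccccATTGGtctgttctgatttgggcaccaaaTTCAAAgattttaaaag
Espl1: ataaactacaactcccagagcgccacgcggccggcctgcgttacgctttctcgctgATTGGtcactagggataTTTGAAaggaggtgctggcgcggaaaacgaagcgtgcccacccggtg
Cdc27: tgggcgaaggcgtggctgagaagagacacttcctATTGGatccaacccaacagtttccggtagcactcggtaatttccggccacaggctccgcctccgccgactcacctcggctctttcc

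The CHR began 18 bases before the start in Cdc20, 29 before it in Ube2c and 27 before it in Espl1, and 4 bases into the transcript in Fbxo5. A CCAAT box lay upstream of each of these CHRs, beginning at 53, 57 and 44 bases before the start in Cdc20, Ube2c and Espl1, and at 25 bases before it in Fbxo5. A CHR anywhere in the window was found in 17.9% of all 32851 windows, and one between 60 bases before and 20 bases after the start in 4.43%. That narrower zone was set after the positions had been seen. In it, 4 of 10 members had a CHR, and so did 7 of 23 windows of APC/C cell-cycle substrates. So did 2 of 8 spindle checkpoint genes, Bub3 and Ttk, and 1 of 5 further inhibitors and cofactors with a window, Cks1b. Of the substrates described in neurons or glia, none of 3 with a window did. None of the 3 core members and none of 10 further core subunits with a window had one there. Anywhere in the window, a CHR was found in 2 of those 10 further core subunits, Anapc7 and Anapc16. It was found anywhere in 13 of the 23 cell-cycle substrates and in the same 4 of 10 members. The same held for 3 of the 8 checkpoint genes and 1 of the 5 further inhibitors and cofactors. Fzr1 and Cdc27 had CCAAT boxes without a CHR, as did many genes, since 37.4% of windows held a CCAAT. The windows of Ube2s, Pttg1, Anapc1 and Anapc2 held neither set of letters. For Pttg1 the RefSeq start lay 270 bases inside the outermost start of GENCODE M21. Its window therefore need not cover the start used in these cells. For Ube2s it lay 250 bases inside, so the outermost start is the first base of the window. For Fzr1 and Fbxo5 it lay 146 and 135 bases inside, and their windows reach past the outermost start. The CHR position of Fbxo5 is counted from the RefSeq start. The E2F letters TTTCCCGC, TTTGGCGC, TTTCGCGC and TTTGCCGC, searched in the same way, were in 2.26% of windows and in none of the 10.

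**Figure D1:**
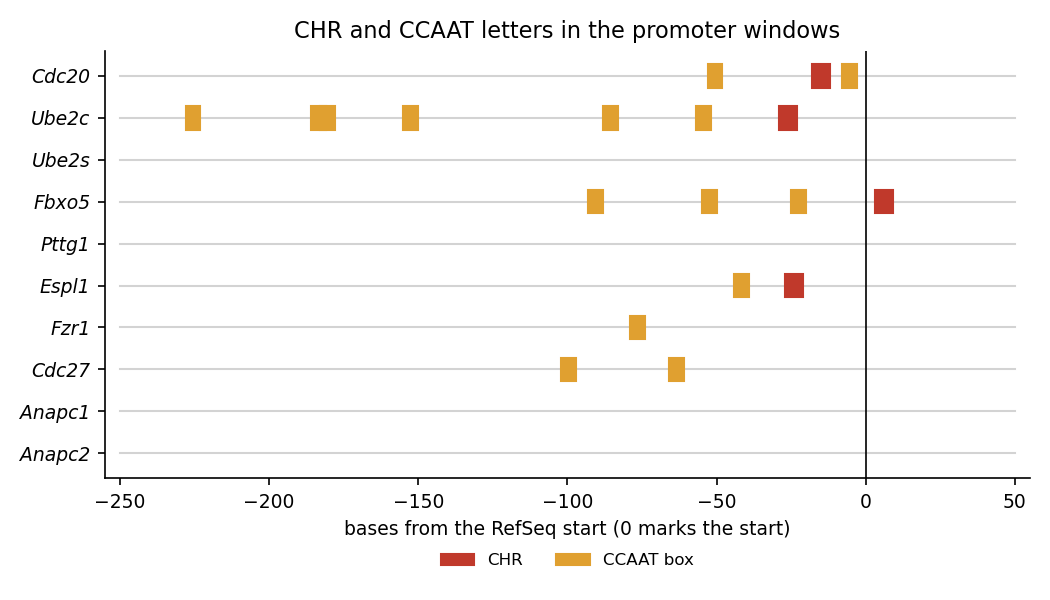
Positions of CHR (red) and CCAAT (yellow) letters on either strand in the RefSeq promoter window of each gene, in bases from the start. The 4 CHRs lie within 29 bases of the start, in Cdc20, Ube2c, Fbxo5 and Espl1, and the 3 core subunits at the bottom have none.

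Libraries held 19798675 to 25982361 reads assigned to genes. E2f1 fell to 375, 483 and 516 normalized reads in the knockout libraries A, B and C, against 1152, 1388.5 and 1029.5 in heterozygous A, B and C, which is -1.38 ± 0.22 on the log2 scale (SE; adjusted p = 0.00559 by limma). E2f3 stood at 324, 231 and 245 normalized reads in knockout libraries and 293, 205 and 253 in heterozygous libraries (adjusted p = 0.845); reads were counted over the whole gene, so this value does not check the loss of floxed exons. The sorted cells carried markers of the neurogenic lineage, and their balance differed between genotypes. All 7 neuroblast markers fell, with summed levels of 10153 to 12047 in knockout and 52404 to 77689 in heterozygous libraries, and the proliferation marker Mki67 fell 10.8-fold. The 6 ependymal markers summed to 50100, 29682 and 10794 in knockout A, B and C, against 7390 to 8487 in heterozygous libraries, and 5 of the 6 rose. Endothelial and mural markers summed to 23994, 14410 and 7316 in knockout A, B and C and 4962 to 7409 in heterozygous libraries, and 1 of 6 rose. Microglial markers summed to 5874 in knockout A, 1239 in B and 1123 in C, against 939 to 3361 in heterozygous libraries, and none of 6 passed. The 2 blood genes summed to 18218, 4889 and 572 in knockout A, B and C and 1160 to 3485 in heterozygous libraries, and neither passed. Of 7 quiescent stem cell and astrocyte markers 2 rose. Among all tested genes 8.59% fell and 7.23% rose at a limma adjusted p under 0.05. Of 6 oligodendrocyte markers none passed, with sums of 55104 to 68503 in knockout and 35169 to 52797 in heterozygous libraries. These marker levels move with the genotype and with the library, and their part in the results below was not tested. In such bulk samples, fewer dividing cells and less RNA per dividing cell cannot be told apart.

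In knockout cells 6 of the 10 genes fell and none rose (limma on log2 values, adjusted p under 0.05 over all tested genes). They were the co-activators Cdc20 and Fzr1, the enzymes Ube2c and Ube2s, the inhibitor Fbxo5 and the separase gene Espl1. Among all tested genes 8.59% were called lower and 7.23% higher, or 15.8% in either direction. Pttg1 and the 3 core subunits did not pass. The highest knockout value was below the lowest heterozygous value for 7 of the 10 genes, the 6 called and Cdc27, against 20.2% of all tested genes. In the authors' deposited table the same 6 of the 10 had an adjusted p under 0.05. Leaving out heterozygous A or heterozygous B removed Fzr1 and Espl1 from the calls, and leaving out knockout A or knockout B removed Fzr1; Cdc20, Ube2c, Ube2s and Fbxo5 passed whichever library was left out.

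**Figure D2:**
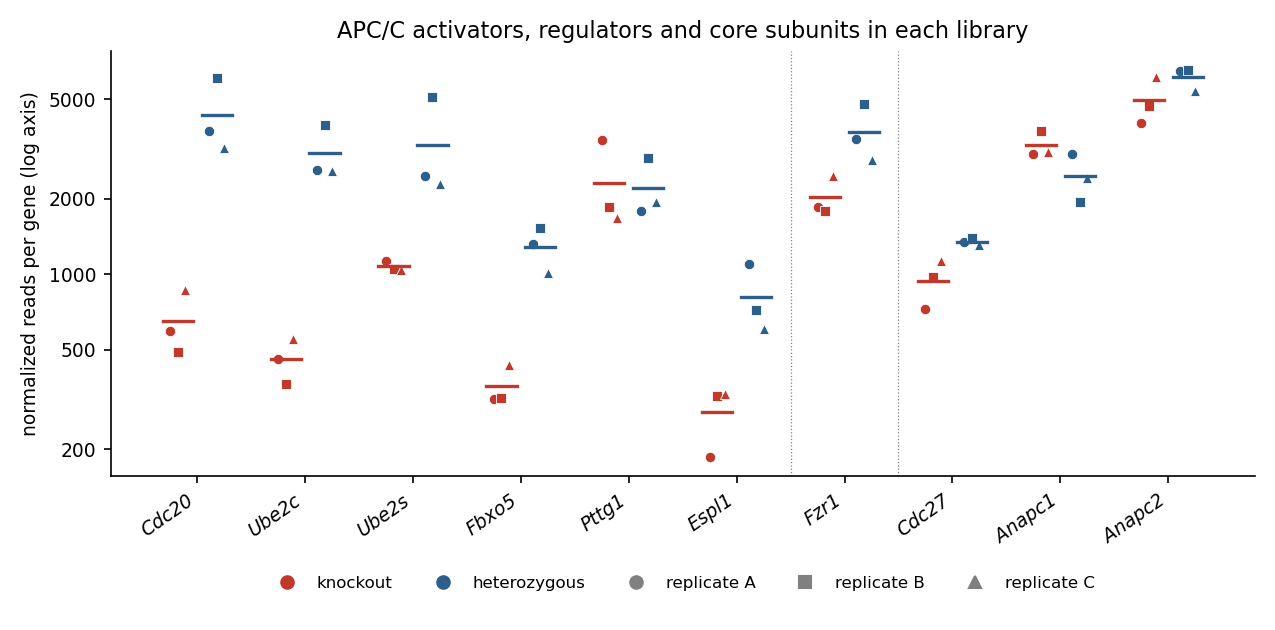
Normalized reads (log axis) of each gene in each library, knockout in red and heterozygous in blue, with a bar at each group's mean; dotted lines part the 6 cell-cycle-regulated genes, Fzr1 and the core subunits. Knockout points lie below heterozygous points for Cdc20, Ube2c, Ube2s, Fbxo5, Espl1, Fzr1 and Cdc27, and overlap them for Pttg1, Anapc1 and Anapc2.

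Both co-activators fell. Gene positions here and below are those of GENCODE M21 on GRCm38. Cdc20 (ENSMUSG00000006398, chr4:118432901-118437352) had 592, 490 and 868 normalized reads in the knockout libraries A, B and C, against 3745, 6068 and 3205 in heterozygous A, B and C. Its lowest heterozygous library was well above its highest knockout library, and the means were 650 ± 196 in knockout and 4340 ± 1521 in heterozygous cells (SD, n = 3 each). The log2 change was -2.72 ± 0.29 (SE), a 6.60-fold decrease (limma adjusted p = 0.00111). Fzr1 (ENSMUSG00000020235, chr10:81366222-81378516), whose product Cdh1 keeps the complex active outside mitosis, had 1852, 1789 and 2466 normalized reads in the knockout libraries A, B and C, against 3482, 4800 and 2846 in heterozygous A, B and C. Its groups did not overlap, but knockout C and heterozygous C lay close together. The log2 change of Fzr1 was -0.85 ± 0.23 (limma adjusted p = 0.0386). Its adjusted p was 0.0732 without knockout A, 0.157 without knockout B, 0.09997 without heterozygous A and 0.128 without heterozygous B. It was 0.0514 with no filter on low values.

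The ratio of Cdc20 to Fzr1 within a library does not depend on the library's scaling. It was 0.320, 0.274 and 0.352 in knockout A, B and C, against 1.08, 1.26 and 1.13 in heterozygous A, B and C. Knockout libraries thus had 3.68-fold less Cdc20 for each Fzr1 read, a log2 difference of -1.88, and the groups did not overlap. A two-sided exact permutation test over the 6 libraries gave p = 0.1, the smallest it can give with 3 against 3. Per kilobase of annotated exon, heterozygous means were 2323 for Cdc20 and 826 for Fzr1, and knockout means were 348 for Cdc20 and 454 for Fzr1 in normalized reads per kilobase.

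Both E2 enzymes fell. Ube2c (ENSMUSG00000001403, chr2:164769898-164778822), the chain-starting enzyme, had 460, 363 and 552 normalized reads in the knockout libraries A, B and C, against 2608, 3927 and 2590 in heterozygous A, B and C. Its log2 change of -2.72 ± 0.24, a 6.59-fold decrease, was close to that of Cdc20 (limma adjusted p = 0.000886). Ube2s (ENSMUSG00000060860, chr7:4794546-4812590), the chain-extending enzyme, had 1132, 1052 and 1035 normalized reads in the knockout libraries A, B and C, against 2475, 5091 and 2286 in heterozygous A, B and C. Its knockout libraries lay within a narrow range, whereas heterozygous B was far above the other heterozygous libraries. The log2 change of Ube2s was -1.51 ± 0.29 (limma adjusted p = 0.0117), and -1.15 without heterozygous B. The ratio of Ube2c to Ube2s was 0.406, 0.345 and 0.534 in knockout libraries, against 1.05, 0.771 and 1.13 in heterozygous libraries. Its log2 difference was -1.21, with no overlap between the groups (two-sided exact permutation p = 0.1, again the smallest possible). Among the other members, also on opposite strands, Elovl1 overlaps 53 bases of Cdc20, Gm49480 142 bases of Espl1 and Mfsd12 4 bases of Fzr1. These 3 overlapping genes had means of 1400, 0.895 and 124 normalized reads. On the opposite strand, Rpl28 overlaps 521 bases of Ube2s and Tnnc2 overlaps 1662 bases of Ube2c. Tnnc2 had a mean of 0.183 normalized reads and Rpl28 one of 1299, and whether counting used the strand is not given in the sources used here.

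The inhibitor Fbxo5 also fell. Fbxo5 (ENSMUSG00000019773, chr10:5799160-5805600) had 317, 321 and 432 normalized reads in the knockout libraries A, B and C, against 1320, 1529 and 1010 in heterozygous A, B and C, and the groups did not overlap. The log2 change was -1.84 ± 0.24, a 3.58-fold decrease (limma adjusted p = 0.00232), and ranged from -2.005 to -1.71 over the 15 alternative settings. Of the transcript 50-mers, 16.0% for Ube2c, 10.6% for Cdc20, 8.71% for Fbxo5 and 3.84% for Ube2s also occur in other annotated genes, where reads could be assigned to either. The gene sharing the most had a mean of 0.183 normalized reads for Ube2c (Tnnc2) and 0.349 for Cdc20 (Gm7856). It had 40.5 for Fbxo5 (Glcci1) and 1299 for Ube2s (Rpl28).

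Separase (Espl1) fell and securin (Pttg1) did not pass. Pttg1 (ENSMUSG00000020415, chr11:43420250-43426251) had 3420, 1863 and 1678 normalized reads in the knockout libraries A, B and C, against 1788, 2900 and 1938 in heterozygous A, B and C. Knockout A was the highest of all 6 libraries and knockout C the lowest, with the heterozygous libraries between them. The log2 difference was 0.03 ± 0.30 with a 95% interval of -0.64 to 0.70 (limma adjusted p = 0.954). Without knockout A, which had the highest summed ependymal, endothelial, microglial and blood markers, the log2 difference was -0.29 (adjusted p = 0.461). Espl1 (ENSMUSG00000058290, chr15:102296266-102324357) had 186, 327 and 333 normalized reads in the knockout libraries A, B and C, against 1102, 719 and 606 in heterozygous A, B and C, without overlap. Its log2 change was -1.52 ± 0.32, a 2.86-fold decrease (limma adjusted p = 0.0160). The adjusted p of Espl1 was 0.0701 without heterozygous A and 0.0698 without heterozygous B. The ratio of Espl1 to Pttg1 was 0.0545, 0.175 and 0.198 in knockout libraries, against 0.616, 0.248 and 0.313 in heterozygous libraries. Its log2 difference was -1.55, and knockout C and heterozygous B lay near each other (two-sided exact permutation p = 0.1). That difference was -0.96 without knockout A (exact permutation p = 0.2) and -1.17 without heterozygous A (exact permutation p = 0.3). Adjusted over the 3 ratios computed, each p was 0.1.

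**Figure D3:**
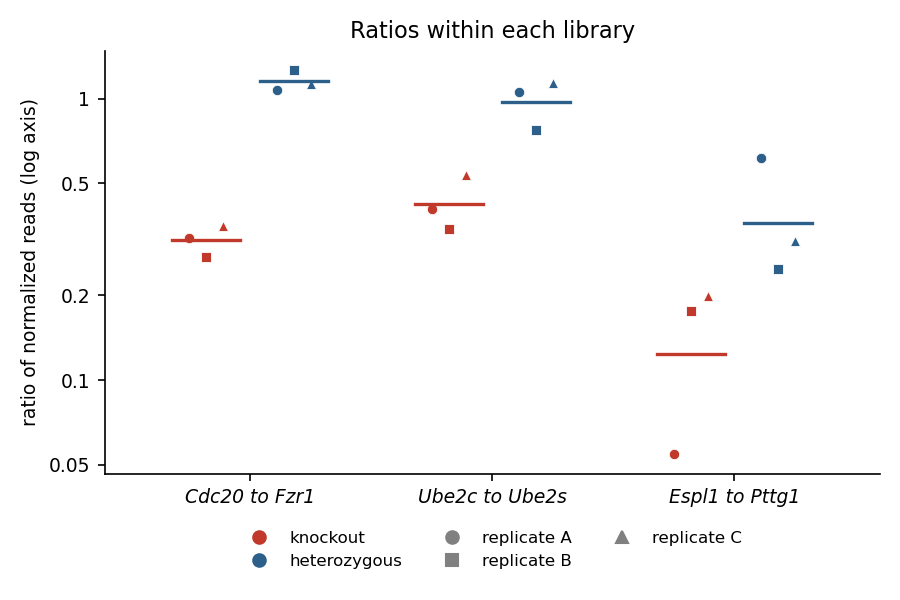
Ratios of normalized reads of Cdc20 to Fzr1, Ube2c to Ube2s and Espl1 to Pttg1 in each library (log axis), knockout in red and heterozygous in blue, with a bar at each group's geometric mean. All 3 knockout libraries lie below all 3 heterozygous libraries in each ratio, with the widest gap for Cdc20 to Fzr1 (log2 difference -1.88).

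None of the 3 core subunits passed the test, and they did not share a direction. Cdc27 (ENSMUSG00000020687, chr11:104502745-104550620), which binds the tails of the co-activators, had 724, 977 and 1125 normalized reads in the knockout libraries A, B and C, against 1348, 1396 and 1304 in heterozygous A, B and C. All of its knockout libraries were below the heterozygous ones, by a log2 difference of -0.54 ± 0.21 (limma adjusted p = 0.108). Anapc2 (ENSMUSG00000026965, chr2:25272478-25285915), the cullin subunit of the catalytic centre, had 4000, 4701 and 6124 normalized reads in the knockout libraries A, B and C, against 6453, 6535 and 5371 in heterozygous A, B and C, with knockout C above heterozygous C. Its log2 difference was -0.33 ± 0.20 (limma adjusted p = 0.290). Anapc1 (ENSMUSG00000014355, chr2:128610104-128687391), the largest scaffold subunit, had 3025, 3733 and 3084 normalized reads in the knockout libraries A, B and C, against 3027, 1940 and 2417 in heterozygous A, B and C. It was the one core member with a higher knockout mean, at a log2 difference of 0.43 ± 0.21 (limma adjusted p = 0.178), and knockout A and heterozygous A were level. The 95% intervals were -1.02 to -0.07 for Cdc27, -0.78 to 0.13 for Anapc2 and -0.03 to 0.90 for Anapc1. The interval of Cdc27 holds the log2 change of Fzr1, which was called.

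The median log2 change was -1.68 for the 6 cell-cycle-regulated genes and -0.33 for the 3 core subunits, a difference of -1.35. The median of all tested genes was 0.05. No test was made on these medians, because the genes were chosen with earlier results known.

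**Figure D4:**
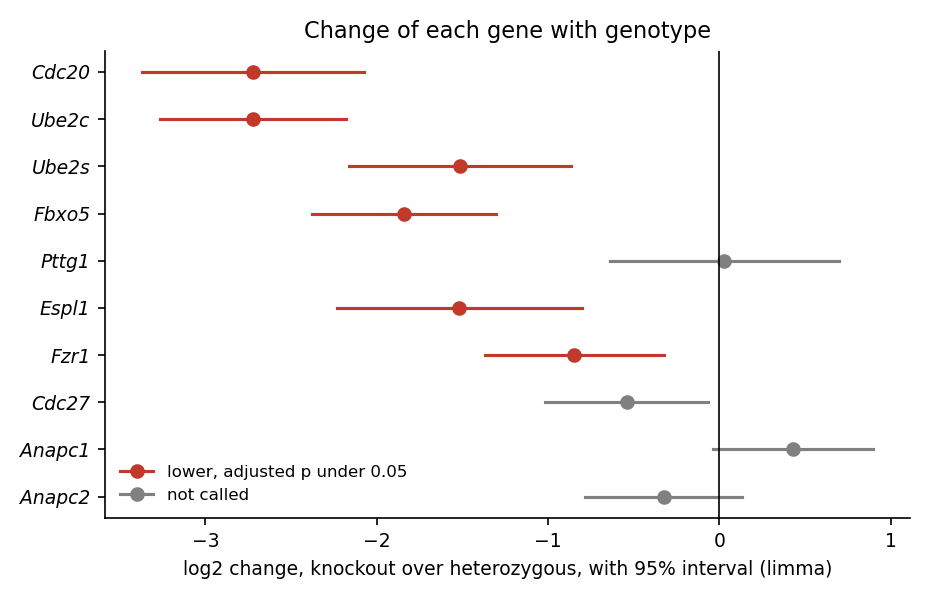
Log2 change of each gene, knockout over heterozygous, with its 95% interval from limma; red marks genes called lower and grey those not called. Cdc20 and Ube2c lie at -2.72, Pttg1 spans 0, and the core subunits at the bottom lie between -0.54 and 0.43.

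The libraries of a genotype also differed among themselves. Heterozygous B held the highest heterozygous value for 8 of the 10 genes, the exceptions being Espl1 and Anapc1, which were highest in heterozygous A. Heterozygous C held the lowest heterozygous value for 8 genes, all but Pttg1 and Anapc1. In the knockout group, library C was the highest for 7 genes and library A for Ube2s and Pttg1.

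Levels of different genes can be set side by side only per length of annotated exon. That length joins the exons of all annotated transcripts of a gene, 16714 bases for Anapc1 and 5141 for Ube2s. Where the transcripts in these cells are shorter, the level per kilobase is understated, so the order below is approximate. In knockout libraries Anapc2, at 1161 to 1778 normalized reads per kilobase, overlapped Pttg1, at 839 to 1710, and both lay above all the others. Fzr1 followed at 399 to 549 normalized reads per kilobase and overlapped Cdc20, at 262 to 465. Ube2s, Anapc1, Fbxo5, Ube2c and Cdc27 had knockout means of 209, 196, 178, 176 and 151 normalized reads per kilobase, each overlapping the next, and Espl1 was lowest at 21.3 to 38.1. In heterozygous libraries Cdc20 came first at 1716 to 3249 normalized reads per kilobase, overlapping Anapc2 at 1559 to 1897. Ube2c, Pttg1 and Fzr1 had heterozygous means of 1170, 1104 and 826 normalized reads per kilobase and overlapped one another. Fbxo5 and Ube2s followed at heterozygous means of 642 and 639 and overlapped Fzr1. Cdc27, at 216, overlapped none of the others, and Anapc1, at 147, overlapped Espl1, at 92.5. Cdc20 and Anapc2 thus overlapped in heterozygous libraries, and Anapc2 was above Cdc20 in every knockout library.

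Genes whose log2 levels followed those of Cdc20 most closely over the 6 libraries were Spc25, a kinetochore gene, Ttc9b, Ddah2, Alkbh1 and Btg1, each with a Pearson r of 0.999, among 12828 genes compared. For Fzr1 they were Exosc4 and Mad2l2 with r of 0.999 and Fancg, Zswim4 and Akt1 with r of 0.998. Mad2l2 encodes an inhibitor of Cdh1-bound APC/C. Among the members, r with Cdc20 was 0.996 for Ube2c, 0.994 for Fbxo5, 0.954 for Fzr1, 0.949 for Ube2s, 0.877 for Espl1 and 0.0184 for Pttg1. For the core subunits r with Cdc20 was 0.855 for Cdc27, 0.748 for Anapc2 and -0.820 for Anapc1. These values describe 6 points in 2 groups, which share the genotype difference.

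Of the other 11 core subunits 2 fell and none rose; their log2 changes had a median of -0.52, and 10 of the 11 had a negative value. Anapc15, a small subunit that helps release the checkpoint complex, had 176, 149 and 185 normalized reads in knockout libraries, against 406, 453 and 341 in heterozygous libraries. Its log2 change was -1.23 ± 0.26 (limma adjusted p = 0.0168). Anapc4 had a log2 change of -0.69 ± 0.19 (limma adjusted p = 0.0408), and Cdc23 one of -0.72 ± 0.24 that did not pass (adjusted p = 0.0732). Anapc11, the RING subunit, had the largest p of the list, with a log2 difference of -0.04 ± 0.21. Without knockout B, heterozygous A or heterozygous B none of the 11 was called, and 1 was called without knockout A or heterozygous C, or with no filter on low values. Of all 14 core subunits, members included, 2 were called lower, against 8.59% of all tested genes, and 12 were not called. Every knockout library was below every heterozygous library for 5 of the 14, against 20.2% of all tested genes.

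Of 8 spindle checkpoint genes, which encode parts of the checkpoint that restrains Cdc20 until chromosomes are attached, their upstream kinases and factors that take the checkpoint complex apart, 5 fell and none rose. Of all tested genes 8.59% were called lower and 7.23% higher. The median log2 change of the 8 genes was -1.87. All 8 had every knockout library below every heterozygous library, against 20.2% of all tested genes. Trip13, the ATPase that takes the checkpoint complex apart, had 162, 198 and 243 normalized reads in knockout libraries, against 835, 1087 and 689 in heterozygous libraries. Its log2 change was -2.10 ± 0.27 (limma adjusted p = 0.00214). Bub1b, Bub1, Ttk and Mad2l1 were the others called, at -3.05, -2.43, -2.37 and -1.63 on the log2 scale. Bub3, Mad2l1bp and Mad1l1 were not called, and Mad1l1 had the largest p (log2 difference -0.55 ± 0.25, limma adjusted p = 0.161).

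Among 7 further inhibitors and cofactors 5 fell and none rose, against 8.59% and 7.23% of all tested genes. Their median was -0.96 on the log2 scale. Cks2, a small subunit of cyclin-dependent kinase complexes, had 260, 199 and 321 normalized reads in knockout libraries, against 894, 1240 and 955 in heterozygous libraries. Its log2 change was -1.99 ± 0.26 (limma adjusted p = 0.00218). Cks1b (-1.33), the E2 enzyme gene Ube2d1 (-1.004), the deubiquitinase gene Usp37 (-0.96) and Mad2l2 (-0.76) were the other calls. Usp44 had the largest p, at a log2 difference of -0.32 ± 0.49. The list held 2 calls without knockout B or heterozygous B, and 3 without knockout A or heterozygous A, or with no filter.

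Of 28 cell-cycle substrates of the APC/C 27 fell and none rose, against 8.59% and 7.23% of all tested genes. Their median was -2.53 on the log2 scale. The knockout values of all 28 were below the heterozygous values, against 20.2% of all tested genes. The smallest p-values belonged to Aurkb, the kinase of the chromosomal passenger complex (7.66-fold lower, limma adjusted p = 0.000970), Aurka, the spindle pole kinase (6.14-fold lower, 0.00101), and Cenpf, a kinetochore protein gene (5.46-fold lower, 0.00108). The largest p was that of Bard1, at a log2 difference of -1.87 ± 0.59 (limma adjusted p = 0.0584). Pttg1, itself an APC/C substrate, was not on this list.

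Of 5 substrates described in neurons or glia 1 fell and none rose, against 8.59% and 7.23% of all tested genes. Their median was -0.07 on the log2 scale. Without heterozygous C, and with DESeq2, 1 of the 5 was called higher. Neurod2, a neuronal transcription factor gene, had 0, 0.890 and 5.06 normalized reads in knockout libraries, against 26.2, 35.3 and 19.99 in heterozygous libraries (limma adjusted p = 0.0295). It rests on few reads and was not called without knockout B or without any 1 heterozygous library. Id2, an inhibitor of differentiation factors, had 8133, 8213 and 12448 normalized reads in knockout libraries, against 4788, 4135 and 7736 in heterozygous libraries, without overlap (log2 difference 0.81 ± 0.27, limma adjusted p = 0.0695). Skil had the largest p, at a log2 difference of -0.07 ± 0.34.

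**Figure D5:**
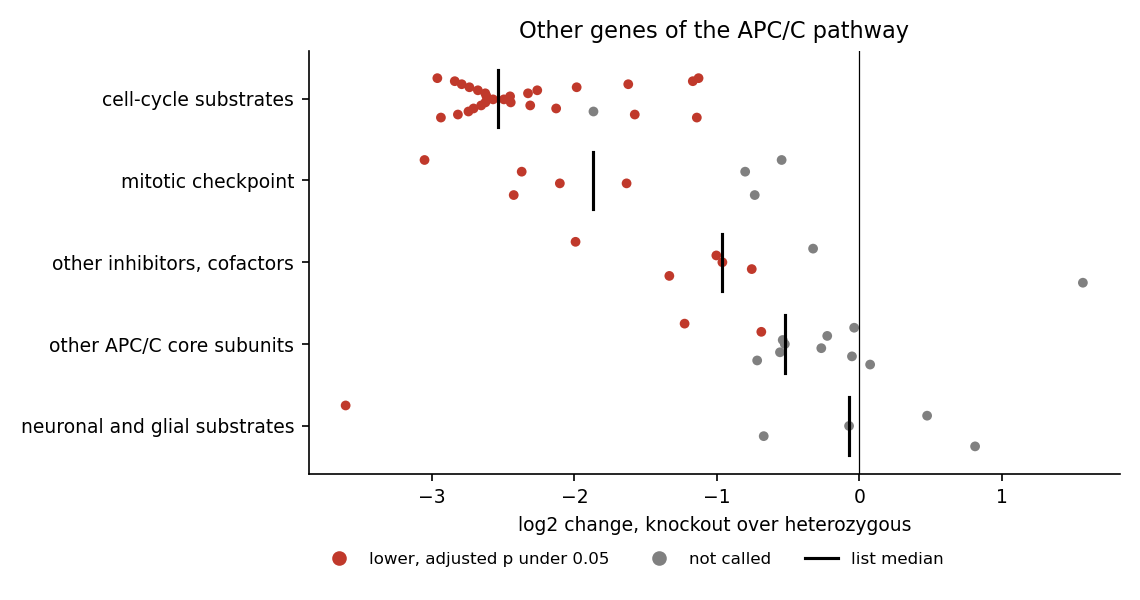
Log2 change, knockout over heterozygous, of each gene in 5 lists of the APC/C pathway; red points were called lower, grey points were not called, and black bars are list medians. Cell-cycle substrates centre on -2.53, checkpoint genes on -1.87 and other core subunits on -0.52.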

How the data were processed

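The 10 members and all gene lists were chosen with earlier results of these data known. The submitters' processing notes name HISAT2, featureCounts, Subread, DESeq2 and GRCm38, without versions or settings. The deposited per-library signal, judged from its values, is reads divided by 1 factor per library, and the deposited mean is a mean of that signal. The authors' log2 fold change compares knockout with heterozygous libraries; their statistic and weight columns are scores beside p-values and adjusted p-values, per the file headers. Values above 0 were whole multiples of 1 step per library (100% within 0.01 reads), so reads were recovered for counting depth and for edgeR and DESeq2. The test was limma 3.58.1 (R 4.3.3) with a mean-variance trend on log2(value + 1), for genes with a mean of at least 10, with genotype as the only term. It was two-sided, with Benjamini-Hochberg adjustment over 18227 genes at 0.05. Fold changes therefore include the added 1, which understates those of low genes. edgeR 4.0.16 called 2921 genes. Ratios were tested by exact permutation over libraries. The code was tested on simulated data. All 15 library pairs differed beyond counting noise (lowest chi-square over its degrees of freedom 46.9). Named genes were the 10 members, per list the genes with the smallest and largest p (3 smallest in lists of over 10), and the 5 genes most correlated with Cdc20 and Fzr1 at a mean of at least 50; the other list genes were named after their values were seen. Gene models came from GENCODE M21, promoter windows from RefSeq (GRCm38.p6). Alternatives changed scaling, test, pseudocount, filter, replicate block and each library. Figures used matplotlib 3.10.9.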

Additional observations from a re-analysis of the deposited data

How the results depend on the processing

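Each member was refitted under 15 alternatives. Cdc20, Ube2c, Ube2s and Fbxo5 were called lower in all 15, Espl1 in 13 and Fzr1 in 9, and Pttg1, Cdc27, Anapc1 and Anapc2 in none. The number of members called lower ranged from 4 to 6 with 1 library left out. The sign of Pttg1 turned, with values from -0.29 to 0.24 without 1 library; it was never called. Over all genes, the number called was 2883 and ranged from 635 (without heterozygous B) to 4019 (without knockout C) with 1 library left out. It was 4452 with DESeq2. The cause of these shifts was not tested. Shared letters did not pair the libraries: deviations from the group means correlated at -0.072, 0.021 and -0.103 for A, B and C. With the letter as a replicate block 2310 genes were called, among them 5 members, and Fzr1 was not called (adjusted p = 0.0676). The block called 3 of the 7 further inhibitors and cofactors and 1 of the 11 further core subunits. Of the 5 neuronal and glial substrates DESeq2 called 2 lower and 1 higher, against 1 and 0, and the block called 1 lower and 1 higher. The 3 ratios kept their direction under every alternative run. Because their groups do not overlap, leaving out 1 library cannot turn them, and the block leaves the mean difference unchanged. The log2 difference of the Espl1 to Pttg1 ratio ranged from -1.89 to -0.96 without 1 library. The difference of medians also kept its direction. Other scalings, filters and the block left it at -1.35, as they can hardly change it. It ranged from -1.47 to -1.33 without 1 library. The median of all genes was 0.05, and 0.11 with DESeq2. The core subunits were not called, and their 95% intervals give the sizes of difference that these libraries leave possible.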

Other observations

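Set against Mki67, the proliferation marker, within each library, the members had different levels. Cdc20 stood at 1.49, 2.41 and 2.20 reads per Mki67 read in knockout A, B and C, against 1.01, 1.61 and 1.11 in heterozygous A, B and C, and the groups overlapped. Ube2c stood at 1.16, 1.79 and 1.40 in knockout libraries, against 0.706, 1.04 and 0.895 in heterozygous libraries. These are the members closest to Mki67, with log2 differences of the ratio of 0.71 each. Relative to Mki67, the knockout mean was higher by 1.59 on the log2 scale for Fbxo5, 1.91 for Espl1, 1.92 for Ube2s, 2.59 for Fzr1 and 3.46 for Pttg1. For the core subunits it was higher by 2.89 for Cdc27, 3.11 for Anapc2 and 3.87 for Anapc1. Mki67 itself changed by -3.43 on the log2 scale, so this ratio rises for any gene that fell less. Pttg1 had 8.61, 9.18 and 4.25 reads per Mki67 read in knockout libraries, against 0.484, 0.771 and 0.670 in heterozygous libraries. The ratios were computed after the values had been seen, and no test was made on them.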
